A study of Mus musculus with 33 samples.

Results

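The genes described are 10 regulators of the arrest of the mouse oocyte in prophase of the first meiotic division and of its release. They are Gpr3, Adcy3, Pde3a, Wee2, Cdc25b, Cdk1, Ccnb1, Ccnb2, Mos and Fbxo43, and they were chosen by name, with earlier results of these data known. Each was found once among the 35321 genes of the count table, had a count in each of the 33 oocytes, and passed the minimum mean level of 10 normalized counts in every comparison.

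The data are counts of sequencing reads per gene in single germinal vesicle oocytes, each cell being 1 library made from polyadenylated RNA. The oocytes came from Nlrp5 +/+, Nlrp5 +/- and Nlrp5 -/- females of the C57BL6/Babr background, 3 weeks old and with no treatment named, whose ovaries were dissected and digested with collagenase and trypsin. Nlrp5 encodes NALP5, a protein of the subcortical maternal complex, and the null allele is a small deletion made by genome editing that brings in a premature stop codon. All oocytes but 1 were further placed by the study in 1 of 2 chromatin stages, non-surrounded nucleolus (NSN) or the later surrounded nucleolus (SN), from marker genes read in the same libraries. None of the 10 genes is among those markers. There were 4 NSN and 6 SN oocytes of Nlrp5 +/+, 9 NSN and 7 SN of Nlrp5 +/-, and 4 NSN and 2 SN of Nlrp5 -/-, and Nlrp5 -/- oocyte 15 had no stage. The mutant females, Nlrp5 +/- and Nlrp5 -/-, were bred in common litters, and most Nlrp5 +/+ females were taken from the parent colony, so colony and genotype cannot be told apart for Nlrp5 +/+. The mutants all belong to 1 edited line.

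Which oocytes came from the same mouse is not stated in the labels. The oocytes of a genotype at a stage therefore counted as 1 sample, and there is no test. An SD is the spread between oocytes of a group, and a log2 difference is that of the mean normalized counts of 2 groups after adding 1 to each. A size of 0.5 on this scale, which is 1.41-fold, serves as a threshold of size only, and beside each count of genes past it stands the percentage of all genes that were past it in the same comparison. Totals were 4223595 to 15573360 counts per oocyte (median 7724335), and normalization removes differences in total, so the amount of RNA in an oocyte was not measured here. Transcripts of Nlrp5 itself ranged over 10114 to 29131 normalized counts in Nlrp5 +/+ oocytes, 5062 to 13472 in Nlrp5 +/- and 1362 to 2556 in Nlrp5 -/-, so the genotypes followed their labels with an overlap only between Nlrp5 +/+ and Nlrp5 +/-. The 9 oocyte markers examined, among them Gdf9 and Zp3, had counts in every group, with a sum of 20261 to 32280 CPM (counts scaled to a common library total) over the staged oocytes and 17286 CPM in the unstaged oocyte 15. The 14 granulosa cell markers summed to 279 to 474 CPM in Nlrp5 +/+ oocytes and lay above that range in only 2 oocytes, both Nlrp5 -/-, namely NSN oocyte 14 (659 CPM) and oocyte 15 (1268 CPM). The 10 markers of theca, stroma and blood summed to 46.2 to 78.96 CPM in NSN and 68.6 to 82.1 CPM in SN Nlrp5 +/+ oocytes, 61.5 to 148 and 67.4 to 112 CPM in Nlrp5 +/-, and 87.1 to 126 and 79.4 to 98.3 CPM in Nlrp5 -/-, with 299 CPM in oocyte 15. All 4 NSN Nlrp5 -/- oocytes thus lay above all 10 Nlrp5 +/+ oocytes in this sum. Of these 10 markers, 9 had counts in Nlrp5 -/- oocytes at each stage, and only Ptprc, a marker of blood cells, was at 0.

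A fully grown oocyte holds itself in prophase through cyclic AMP (cAMP). The receptor GPR3 signals through Gs to adenylyl cyclases such as ADCY3, the cAMP they make activates protein kinase A, and PDE3A breaks cAMP down. Protein kinase A acts on the kinase WEE2, which puts an inhibitory phosphate on CDK1, and on the phosphatase CDC25B, which takes it off. When cAMP falls, CDK1 with its partners cyclin B1 and cyclin B2 becomes active and the germinal vesicle breaks down. MOS, a kinase at the head of the MAPK cascade, and FBXO43 (EMI2), an inhibitor of the anaphase-promoting complex, then act at the second arrest, in metaphase of the second division. Many of these transcripts are stored in the growing oocyte and are translated later, so a level of mRNA is not a level of protein or of activity.

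Sequence just upstream of the start sites of Cdk1 and of both B cyclins is shown because these genes are known to be switched together in dividing cells. The switch acts through CCAAT boxes (on the other strand ATTGG), bound by NF-Y, and through the cell cycle homology element (CHR). The CHR was searched as TTTGAA, or TTCAAA on the other strand, and in no other form. Each line gives the 110 bases before the start, 5′ to 3′ on the gene's own minus strand (RefSeq, GRCm38.p6). Capitals mark these 2 motifs on either strand. In the count table, Ccnb1 and Cdk1 begin upstream of these starts, at 100786570 and 69352938, so part of their windows lies inside the gene as counted.
Ccnb1, chr13:100786487-100786596: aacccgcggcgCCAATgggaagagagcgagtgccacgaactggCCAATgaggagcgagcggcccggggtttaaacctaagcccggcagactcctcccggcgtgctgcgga
Ccnb2, chr9:70421555-70421664: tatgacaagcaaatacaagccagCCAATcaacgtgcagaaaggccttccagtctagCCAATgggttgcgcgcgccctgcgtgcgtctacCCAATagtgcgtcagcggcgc
Cdk1, chr10:69352913-69353022: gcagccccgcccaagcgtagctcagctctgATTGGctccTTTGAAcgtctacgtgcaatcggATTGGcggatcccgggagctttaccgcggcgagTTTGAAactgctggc
Over the 250 bases before the start, on both strands and with overlaps allowed, Ccnb2 and Cdk1 each held 3 CCAAT boxes and Ccnb1 held 2. Of 32851 promoters of the same length, 10.1% held 2 or more and 2.79% held 3 or more. The CHR letters searched were found 2 times for Cdk1, 1 time for Ccnb2 and not in this window for Ccnb1, and 16% of promoters held them. The promoter table held 7 of the 10 genes, and Gpr3, Wee2 and Cdc25b had 1 CCAAT box each. Adcy3 had 2 listed starts, with 1 CCAAT box before one of them and none in this window before the other. Log2 levels of Ccnb1 and Ccnb2 had a Pearson r of 0.12 over the 32 staged oocytes, those of Cdk1 and Ccnb2 of 0.31 and those of Cdk1 and Ccnb1 of −0.34. These oocytes share stages, genotypes and scaling, so the values are descriptions.

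The ends of 6 transcripts are shown because the libraries were primed on the poly(A) tail and because stored oocyte messages are known to be lengthened or shortened there. The cytoplasmic polyadenylation element (CPE, searched as TTTTAT and TTTTAAT on the transcript's strand) governs that change together with the polyadenylation signal (AATAAA or ATTAAA). Each line gives 30 bases of the canonical transcript, 5′ to 3′ on the gene's strand, from GRCm39 with its GENCODE annotation, and capitals mark the polyadenylation signal and, in Wee2, the first of its 2 CPE matches. These coordinates are of another build than those of the promoters and of the counts.
Ccnb1, chr13:100915158-100915187: gttgctAATAAAcatagttttcgattttca
Ccnb2, chr9:70314974-70315003: tattgaaggaaAATAAAgctattgatctac
Cdk1, chr10:69170976-69171005: ggAATAAAaggattattcacaaacagaaaa
Fbxo43, chr15:36150206-36150235: aataATTAAAtttaaaatttacatattttc
Mos, chr4:3870657-3870686: ttttaggaAATAAAgttaccacgaacttca
Wee2, chr6:40443702-40443731: TTTTAATccagatcattgtaAATAAAgatt
The Wee2 line ends 16 bases before the transcript does, and the other lines end with it. Its other CPE match begins in the last 2 letters of the line and runs past them, so it is not in capitals. These letters of a CPE lay within the last 100 bases of Wee2 and Adcy3 among the 10 transcripts, and in 15.9% of 21593 canonical coding transcripts. A polyadenylation signal lay within the last 40 bases of 67.8% of them. No match in a window says only that these letters were not there.

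**Figure D1:**
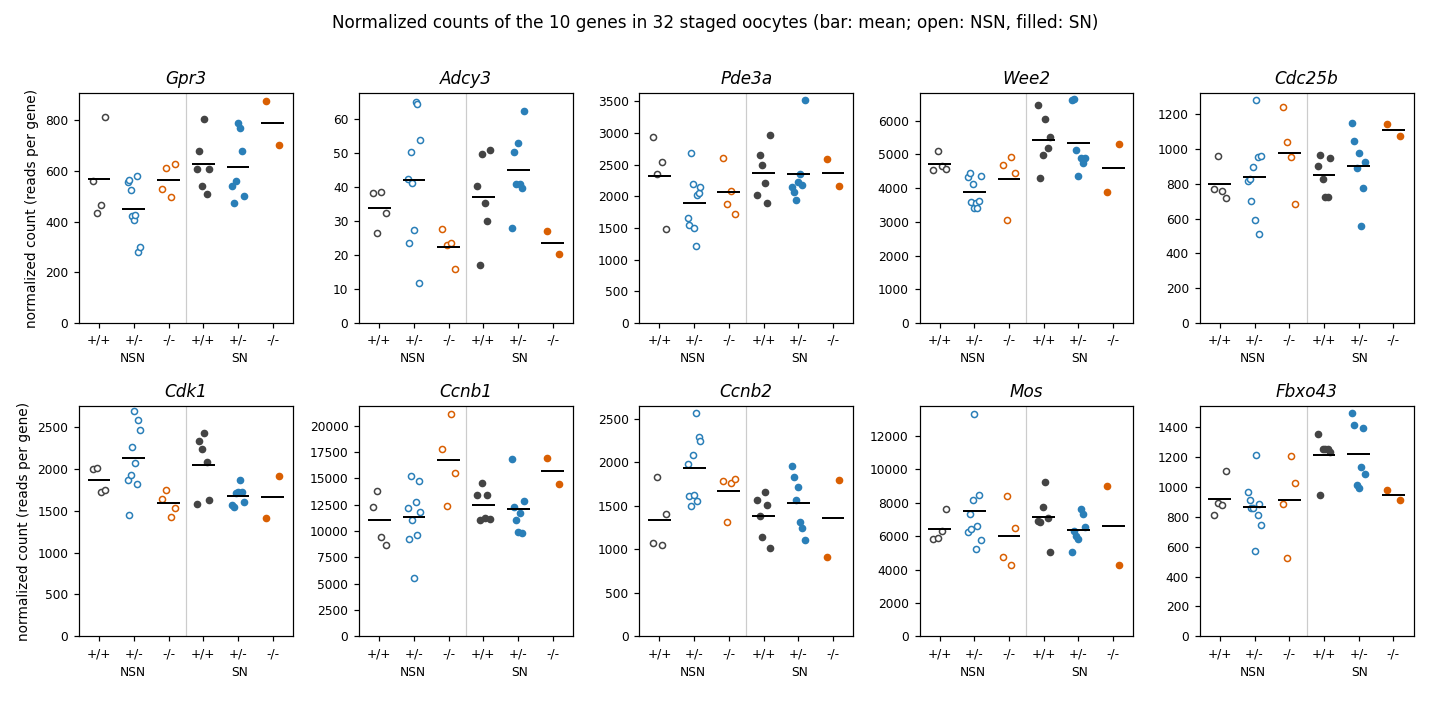
Normalized read count of each of the 10 genes (linear axes from 0) in each of the 32 staged oocytes, by stage and genotype, with open points for NSN, filled points for SN and a bar at each group mean. NSN and SN points overlap in nearly every genotype and panel, while the mean of Ccnb1 is higher and that of Adcy3 lower in Nlrp5 -/- than in Nlrp5 +/+ oocytes at both stages.

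In Nlrp5 +/+ oocytes the 10 genes differed little between stages. None was past 0.5 in either direction between NSN and SN, where 33.9% of all 13576 genes were. Among genes with a mean of at least 100, 10.9% were past 0.5 and higher and 11.5% lower. All 10 log2 differences were above 0, from 0.03 (Pde3a) to 0.40 (Fbxo43), with a median of 0.14 against 0.03 over all genes. That common sign depended on scaling, since 7 of 10 were above 0 after scaling by total count, which shifted the median of all genes by −0.11, and 6 of 10 with pooled sums. Of all genes past 0.5, 41.0% were higher at SN, and 29.4% after scaling by total count. None of the 10 had NSN and SN values that did not overlap, which 9.8% of all genes had.

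In Nlrp5 +/- and Nlrp5 -/- oocytes, too, none of the 10 was past 0.5 between stages, against 28.7% and 38.1% of all genes. Among genes with a mean of at least 100, 7.77% were higher and 10.5% lower in Nlrp5 +/-, and 10.8% and 15.5% in Nlrp5 -/-. In Nlrp5 +/- again none had values that did not overlap (1.34% of all genes). The median difference was 0.10 in Nlrp5 +/- and 0.09 in Nlrp5 -/-, and over all genes it was −0.05 in both. Gpr3, Adcy3, Pde3a, Wee2, Cdc25b and Fbxo43, which is 6 of the 10, were higher at SN in all 3 genotypes, against 22.2% of all genes, and none of the 10 was lower at SN in all 3, against 26.9%. In Nlrp5 -/- this sign turned with 1 oocyte left out for Adcy3 (lowest −0.15, without oocyte 7), Wee2 (lowest −0.13, without oocyte 31) and Fbxo43 (lowest −0.14, without oocyte 14), in Nlrp5 +/- for Adcy3 (from 0.09 to −0.03 without oocyte 63) and in Nlrp5 +/+ for Pde3a (from 0.03 to −0.14 without oocyte 87). Of the 6, only Gpr3 and Cdc25b kept the sign in every genotype with any 1 oocyte left out, and Cdc25b in Nlrp5 +/+ was at −0.018 after scaling by total count.

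**Figure D2:**
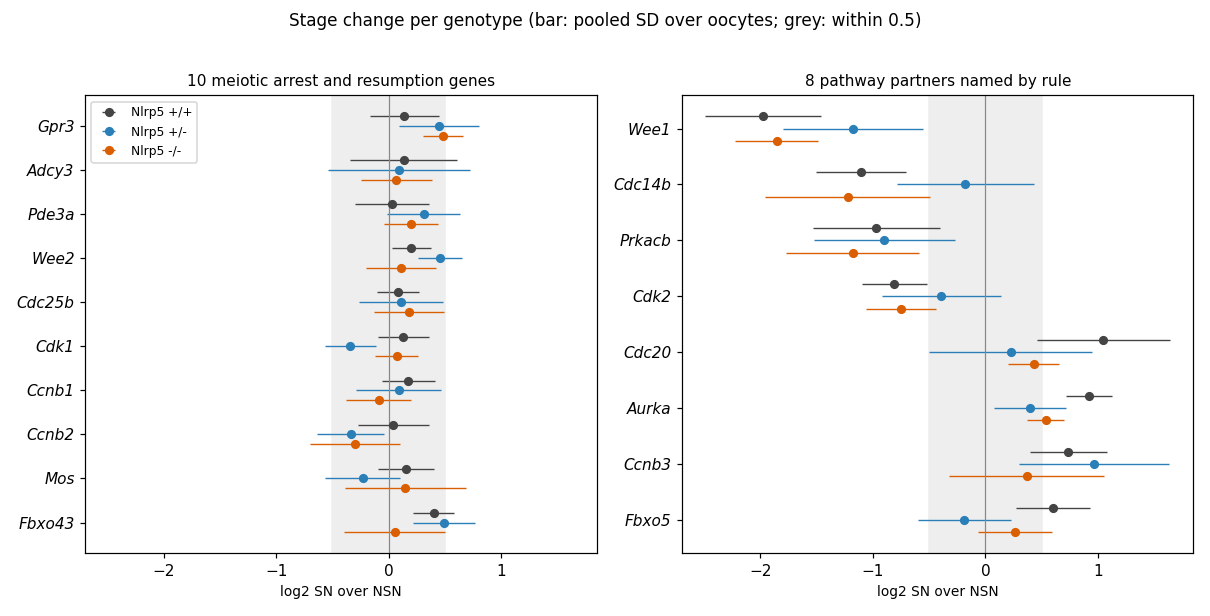
Log2 difference of SN over NSN mean normalized counts in each genotype, for the 10 genes on the left and 8 further pathway genes, described further on, on the right, where bars are the pooled SD of log2 values over oocytes and grey covers differences within 0.5. All points of the 10 genes lie in the grey, up to Fbxo43 in Nlrp5 +/- (0.49), while those of Wee1 lie between −1.98 and −1.17.

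Gpr3 (chromosome 4, 133209340 to 133212536, minus strand, in GRCm38 like the gene positions that follow), the receptor that keeps cAMP high, was higher at SN in each genotype. In Nlrp5 +/+ oocytes it had 436, 464, 560.4 and 810.4 normalized counts at NSN, and at SN it ranged from 508 to 806 (median 609). Its Nlrp5 +/- values ran from 279 to 579 (median 427) at NSN and from 472 to 788 (median 559) at SN. In Nlrp5 -/- it had 496, 528, 611 and 627 at NSN and 703 and 877 at SN. The groups overlapped in Nlrp5 +/+ and Nlrp5 +/-, and in Nlrp5 -/- both SN oocytes lay above all 4 NSN oocytes, as was the case for 9.47% of all genes. The log2 differences were 0.14, 0.45 and 0.48 in Nlrp5 +/+, Nlrp5 +/- and Nlrp5 -/-. The last of these passed 0.5 by a small margin with TMM scaling (0.50) and without oocyte 14, the staged oocyte with the high granulosa sum (0.52). It was 0.31 without oocyte 7 and 0.63 without oocyte 31, and the difference in Nlrp5 +/+ was 0.032 without oocyte 78 and 0.36 without oocyte 87. Gpr3 overlaps Cd164l2, on the other strand, by 406 bases, and since the strand setting of the counting is not given in the sources used here, reads of this overlap may belong to either gene. Cd164l2 had a mean of 3778 normalized counts against 569 for Gpr3.

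Adcy3 (chromosome 12, 4133103 to 4213525, plus strand), which encodes an adenylyl cyclase, had the lowest level of the 10 and the widest gap between genotypes. In Nlrp5 +/+ oocytes it had 26.4, 32.3, 38.3 and 38.5 normalized counts at NSN and ranged from 17.1 to 51.0 (median 37.8) at SN. In Nlrp5 +/- it ranged from 11.8 to 65.0 (median 42.2) at NSN and from 28.0 to 62.3 (median 41.1) at SN. Values in Nlrp5 -/- were 15.8, 22.9, 23.7 and 27.7 at NSN and 20.3 and 27.0 at SN. Both SN Nlrp5 -/- oocytes lay below all 7 SN Nlrp5 +/- oocytes, as did 5.81% of all genes, and 3 of 4 NSN Nlrp5 -/- oocytes lay below all NSN Nlrp5 +/+ oocytes. Mean normalized counts of Nlrp5 -/- were lower than those of Nlrp5 +/+ by a log2 difference of −0.57 at NSN and −0.63 at SN, and lower than those of Nlrp5 +/- by −0.88 and −0.90. The first pair of differences was under the threshold with 1 oocyte left out, at −0.44 at NSN without oocyte 30 and −0.45 at SN without oocyte 31. The unstaged Nlrp5 -/- oocyte 15 was at 52.1, above all 6 staged Nlrp5 -/- oocytes, and with it and without regard to stage the difference from Nlrp5 +/+ was −0.39.

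Counting error is wide for Adcy3, which had 10 to 89 reads per oocyte. Its reads summed over a group came to 4.66 CPM (exact Poisson 95% interval 3.99 to 5.41) in NSN and 4.68 (4.18 to 5.23) in SN Nlrp5 +/+ oocytes, and to 2.82 (2.26 to 3.48) and 2.93 (2.16 to 3.89) in Nlrp5 -/-. These intervals take reads as independent counts. They cover counting error only, not the spread between oocytes or mice, and are no test between genotypes. The sums leave out the unstaged Nlrp5 -/- oocyte 15, which had 62 reads. The span of Adcy3 overlaps that of Cenpo, on the other strand, over 17522 bases, and Cenpo had a mean of 1225 normalized counts against 37.2. The part of Cenpo reads in the Adcy3 counts was not tested.

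Pde3a (chromosome 6, 141249269 to 141507448, plus strand), the phosphodiesterase that breaks down cAMP, differed least of the 10 between stages in Nlrp5 +/+ oocytes (log2 0.03). It had 1483, 2349.6, 2537 and 2939 normalized counts at NSN and ranged from 1896 to 2968 (median 2355) at SN. In Nlrp5 +/- it ranged from 1213 to 2679 (median 2018) at NSN and from 1936 to 3514 (median 2186) at SN, with the highest value in oocyte 55. Values in Nlrp5 -/- were 1718, 1882, 2090.0 and 2599 at NSN and 2160.1 and 2581 at SN. All these groups overlapped. The stage difference was 0.31 in Nlrp5 +/- and 0.19 in Nlrp5 -/-. The former turned to −0.09 when oocyte 61 was counted as SN and oocyte 55 as NSN, and the latter was 0.060 without oocyte 7. For Nlrp5 -/- over Nlrp5 +/+ the log2 difference was −0.17 at NSN, between −0.33 without oocyte 87 and −0.035 without oocyte 70, and −0.00 at SN, within the SD of the oocytes.

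Wee2 (chromosome 6, 40439088 to 40466813, plus strand) encodes the oocyte kinase that holds CDK1 inactive, and it was higher at SN in all 3 genotypes. In Nlrp5 +/+ oocytes it had 4541, 4552, 4661 and 5088 normalized counts at NSN and ranged from 4298 to 6458 (median 5344) at SN, where 4 of 6 oocytes lay above every NSN oocyte. Its Nlrp5 +/- values ran from 3411 to 4436 (median 3629) at NSN and from 4371 to 6637 (median 4904) at SN, where 6 of 7 lay above every NSN oocyte. In Nlrp5 -/- it had 3068, 4434, 4675 and 4911 at NSN and 3891 and 5303 at SN, and the groups overlapped widely. The log2 differences of SN over NSN were 0.20, 0.46 and 0.11 in Nlrp5 +/+, Nlrp5 +/- and Nlrp5 -/-.

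At NSN, all 9 Nlrp5 +/- oocytes had less Wee2 than all 4 Nlrp5 +/+ oocytes (log2 −0.28), an arrangement found, in this direction, for 0.269% of all genes. At SN the same genotypes differed by −0.02, at 5412 ± 769 in Nlrp5 +/+ and 5322 ± 917 in Nlrp5 +/- (mean ± SD, n = 6 and 7). Against Nlrp5 +/+, Nlrp5 -/- differed by −0.14 at NSN and −0.24 at SN, with overlap at both stages. The former was −0.011 without oocyte 14, and the latter −0.48 without oocyte 31 and −0.029 without oocyte 7. Genotype and first index cannot be told apart here, because each set of libraries with a shared first index held 1 genotype.

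Cdc25b (chromosome 2, 131186949 to 131198497, plus strand), the phosphatase that opposes WEE2, had 717, 758, 769 and 958 normalized counts in NSN and ranged from 722 to 963 (median 866) in SN Nlrp5 +/+ oocytes. In Nlrp5 +/- it ranged from 514 to 1281 (median 827) at NSN and from 559 to 1148 (median 927) at SN. Nlrp5 -/- oocytes had 685, 953, 1037 and 1237 at NSN and 1072 and 1144 at SN. The 3 stage differences lay between 0.08 and 0.18, and with 1 oocyte left out between 0.033 and 0.31. Both SN Nlrp5 -/- oocytes lay above all 6 SN Nlrp5 +/+ oocytes, with a log2 difference of 0.39, as 7.24% of all genes did. At NSN, where there were 4 oocytes in each of these groups, the difference was 0.29, or 0.16 without oocyte 13, and the groups overlapped.

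Cdk1 (chromosome 10, 69335146 to 69352938, minus strand) encodes the kinase that drives entry into M phase. It had 1718, 1749, 1998 and 2005 normalized counts in NSN and ranged from 1577 to 2425 (median 2153) in SN Nlrp5 +/+ oocytes. In Nlrp5 +/- it ranged from 1452 to 2682 (median 2070.4) at NSN and from 1544 to 1865 (median 1716) at SN, lower by a log2 difference of −0.34, whereas the differences of Nlrp5 +/+ and Nlrp5 -/- were 0.13 and 0.07. The first of these 2 was −0.032 with pooled sums, and the other −0.17 without oocyte 31 and 0.27 without oocyte 7. Nlrp5 -/- oocytes had 1422, 1532, 1641 and 1750.2 at NSN and 1414 and 1915 at SN. All stage groups overlapped. Cdk1 was lower in Nlrp5 -/- than in Nlrp5 +/+ at both stages, with log2 differences of −0.23 and −0.30 and with overlap. The SN difference was −0.53 without oocyte 31 and −0.094 without oocyte 7.

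Ccnb1 (chromosome 13, 100778650 to 100786570, minus strand), which encodes cyclin B1, was the most abundant of the 10 in counts and was higher in Nlrp5 -/- oocytes. Nlrp5 +/+ oocytes had 8676, 9412, 12300.5 and 13779.9 normalized counts at NSN and ranged from 11086 to 14505 (median 12303) at SN. Nlrp5 +/- oocytes ranged from 5541 to 15202 (median 11779) at NSN and from 9778 to 16809 (median 11706) at SN. Nlrp5 -/- oocytes had 12408, 15483, 17798 and 21065 at NSN and 14452 and 16906 at SN. Thus 3 of 4 NSN Nlrp5 -/- oocytes lay above all NSN oocytes of both other genotypes, and the exception was oocyte 14, whose granulosa sum was high. Over Nlrp5 +/+ the log2 difference was 0.60 at NSN and 0.33 at SN, and over Nlrp5 +/- it was 0.56 and 0.38. Without oocyte 14 the NSN differences were 0.71 and 0.68, and without oocyte 29, the highest, they were 0.46 and 0.43, under the threshold. The first was also under it without Nlrp5 +/+ oocyte 87 and the second without Nlrp5 +/- oocyte 56 (0.47). With pooled sums both were 0.49.

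The unstaged Nlrp5 -/- oocyte 15 went the other way, with 8943 normalized counts of Ccnb1, below all 6 staged Nlrp5 -/- oocytes. With it and without regard to stage, the difference from Nlrp5 +/+ was 0.36. Summed reads of Ccnb1 came to 1489 CPM (1477 to 1502) in NSN Nlrp5 +/+ and 2086 CPM (2070 to 2102) in NSN Nlrp5 -/- oocytes, so counting error is small beside the spread between oocytes. Ccnb1-ps, a pseudogene, resembles Ccnb1, and how reads common to both were assigned is not given in the sources used here.

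Ccnb2 (chromosome 9, 70407692 to 70421547, minus strand), which encodes cyclin B2, had the sign of Ccnb1 in some comparisons and the opposite sign in others. It had 1055, 1078, 1408 and 1827 normalized counts in NSN and ranged from 1015 to 1655 (median 1450.3) in SN Nlrp5 +/+ oocytes. Its Nlrp5 +/- values ran from 1497 to 2565 (median 1984) at NSN and from 1108 to 1964 (median 1565) at SN (log2 −0.34). Values in Nlrp5 -/- were 1318, 1758, 1785 and 1815 at NSN and 911 and 1800.4 at SN (log2 −0.30), so that its highest SN value lay among the NSN values. At NSN, Nlrp5 +/- was above Nlrp5 +/+ by 0.53, with overlap, and this was 0.49 after scaling by total count and 0.43 without Nlrp5 +/+ oocyte 79. Nlrp5 -/- was above Nlrp5 +/+ by 0.31 at NSN. At SN the difference was −0.03, which rested on 2 unlike oocytes, since it was −0.60 without oocyte 31 and 0.38 without oocyte 7. The stage difference in Nlrp5 -/- likewise was −0.87 without oocyte 31 and 0.11 without oocyte 7.

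Mos (chromosome 4, 3870657 to 3872105, minus strand), the kinase needed for the second arrest, had 5848, 5875, 6322 and 7619 normalized counts in NSN and ranged from 5023 to 9259.8 (median 6979.6) in SN Nlrp5 +/+ oocytes. In Nlrp5 +/- it ranged from 5244 to 13319 (median 6596) at NSN, with the highest value in oocyte 56, and from 5030.1 to 7599 (median 6318) at SN. Nlrp5 -/- oocytes had 4269.9, 4775, 6490.0 and 8409 at NSN and 4275 and 8975 at SN, and the SD of these 2 SN oocytes, 3324, was the largest among the 6 groups. Stage differences were 0.15, −0.23 and 0.15, and differences of Nlrp5 -/- over Nlrp5 +/+ were −0.10 and −0.11. The third stage difference was −0.49 without oocyte 7 and 0.58 without oocyte 31, and the SN difference of Nlrp5 -/- over Nlrp5 +/+ was −0.74 and 0.33.

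Fbxo43 (chromosome 15, 36150060 to 36164884, minus strand), the inhibitor of the anaphase-promoting complex, had the largest stage difference of the 10 in Nlrp5 +/+ and Nlrp5 +/- oocytes. It had 814, 880.2, 890.1 and 1103 normalized counts in NSN and ranged from 943 to 1356 (median 1253) in SN Nlrp5 +/+ oocytes, where 5 of 6 lay above every NSN oocyte. The exception was oocyte 72, at 943. Its Nlrp5 +/- values ran from 569.8 to 1212 (median 859.5) at NSN and from 993 to 1491 (median 1134) at SN, where 3 of 7 lay above every NSN oocyte. Nlrp5 -/- oocytes had 525, 884, 1025 and 1206 at NSN and 910.3 and 976 at SN, and the SN values lay within the NSN range.

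The log2 differences of SN over NSN for Fbxo43 were 0.40, 0.49 and 0.05 in Nlrp5 +/+, Nlrp5 +/- and Nlrp5 -/-. The difference between these genotypes was not tested. At SN, Nlrp5 -/- was lower than both Nlrp5 +/+ and Nlrp5 +/-, with a log2 difference of −0.37 from each. Both SN Nlrp5 -/- oocytes lay below all 7 SN Nlrp5 +/- oocytes, which held in this direction for 5.81% of all genes. Of the 6 SN Nlrp5 +/+ oocytes, oocyte 72 lay between these 2 and the other 5 above both.

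**Figure D3:**
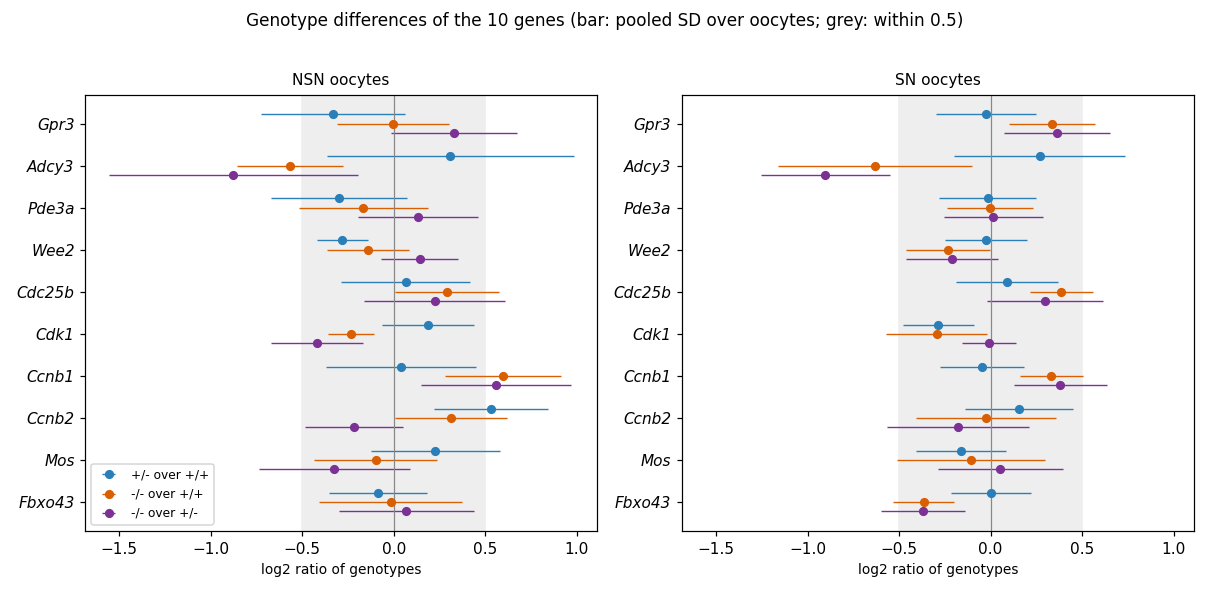
Log2 difference of mean normalized counts between genotypes for each of the 10 genes, in NSN oocytes on the left and SN oocytes on the right, where bars are the pooled SD of log2 values over oocytes and grey covers differences within 0.5. Adcy3 in Nlrp5 -/- lies to the left of the grey in both panels and Ccnb1 in Nlrp5 -/- to its right at NSN, and the comparisons share oocytes.

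Between genotypes, few of the 10 were past 0.5. For Nlrp5 -/- over Nlrp5 +/+ these were Ccnb1, higher at NSN (15.6% of all genes were past 0.5 and higher), and Adcy3, lower at NSN (13.3% lower) and at SN (18.7% lower). For Nlrp5 -/- over Nlrp5 +/- they were again Ccnb1, higher at NSN (12.2% higher), and Adcy3, lower at NSN (14.9% lower) and SN (17.6% lower). For Nlrp5 +/- over Nlrp5 +/+ Ccnb2 was higher at NSN (10.8% higher) and none was past 0.5 at SN, against 10.6% in either direction. For Nlrp5 -/- over Nlrp5 +/+ the counts were 2 of 10 at NSN and 1 of 10 at SN, against 28.9% and 34.6% of all genes in either direction. Among genes with a mean of at least 100, which Adcy3 did not reach, 10.2% were past 0.5 and higher and 8.38% lower at NSN. At SN these shares were 9.6% and 15.6%. For Nlrp5 -/- over Nlrp5 +/- at NSN it was 2 of 10 against 27.1%, and with a mean of at least 100, 7.56% were higher and 10.5% lower. None of the 10 had values that did not overlap for Nlrp5 -/- at NSN, over Nlrp5 +/+ (7.1% of all genes) or over Nlrp5 +/- (1.16%), or for Nlrp5 +/- over Nlrp5 +/+ at SN (0.0827%). At NSN the theca, stroma and blood marker sum was also higher in Nlrp5 -/- than in Nlrp5 +/+ oocytes (87.1 to 126 against 46.2 to 78.96 CPM), and its part in the differences of Ccnb1 and Adcy3 was not tested. The comparisons of Nlrp5 -/- and of Nlrp5 +/- with Nlrp5 +/+ share their Nlrp5 +/+ oocytes.

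By counts per kilobase of exon, the order of the 10 was the same in all 6 groups apart from the places of Pde3a, Gpr3 and Fbxo43 among themselves. On this scale NSN Nlrp5 +/+ oocytes had means of 4428 for Mos, 2573 for Ccnb1, 1391 for Wee2, 604 for Ccnb2 and 320.4 for Cdk1. Pde3a, Gpr3 and Fbxo43 followed at 181, 174 and 169.6, closer together than their SD, and then came Cdc25b at 78.6 and Adcy3 at 2.73. Mos stood first in 6 of 6 groups, but in both Nlrp5 -/- groups its gap to Ccnb1 was smaller than the SD. In SN Nlrp5 -/- oocytes so was the gap between Cdk1 and Gpr3. With the length of the canonical transcript in place of all exons, a setting chosen after seeing the data, Ccnb1 stood first in 4 groups and Mos in 2, and Gpr3 stood above Cdk1 in 5 groups and below it in NSN Nlrp5 +/-. Cyclin B1 transcripts thus exceeded those of Cdk1 throughout, by a median per-kilobase ratio of 7.90 in NSN and 8.81 in SN Nlrp5 +/+ oocytes, 7.79 and 8.73 in Nlrp5 +/-, and 14.2 and 13.2 in Nlrp5 -/-. The ratio carries the genotype difference of Ccnb1 and that of Cdk1, which had opposite signs for Nlrp5 -/- over Nlrp5 +/+.

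A list of 37 further genes of the same pathway was read beside the 10, covering the cAMP arm, the CDK1 switch, other cyclins, the anaphase-promoting complex and the MAPK arm. Of the listed genes only Cdc25a was among the markers used for staging, and it is left out of the stage counts. From NSN to SN, 6 of 34 that passed the minimum level were past 0.5 and higher (13.9% of all genes) and 4 lower (20.0%) in Nlrp5 +/+. In Nlrp5 +/- it was 2 higher (9.33%) and 2 lower (19.4%) of 35, and in Nlrp5 -/- 1 higher (14.3%) and 8 lower (23.8%) of 35. Past 0.5 in all 3 genotypes were Wee1 and Prkacb, both lower, against 8.94% of all genes, and none was higher in all 3, against 2.29%. Of the 10, none was lower by this size in every genotype, against the same 8.94%, and no contrast between the 2 lists is drawn from these counts.

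Wee1, the kinase that does the work of WEE2 in somatic cells, had the largest difference between stages in the list. In Nlrp5 +/+ oocytes it had 401, 468, 512 and 556 normalized counts at NSN and ranged from 50.6 to 161 (median 142) at SN, with no overlap, as did 6.07% of all genes in this direction. It ranged from 218 to 711 (median 550.5) at NSN and from 97.9 to 443 (median 192) at SN in Nlrp5 +/-, and in Nlrp5 -/- it had 398, 417, 452 and 477 at NSN and 79.6 and 159.9 at SN. The log2 differences were −1.98, −1.17 and −1.86, so Wee1 was lower at SN in each genotype while Wee2 was higher. The per-kilobase ratio of Wee2 to Wee1 had a median of 26.5 at NSN and 110.3 at SN in Nlrp5 +/+ oocytes, 21.7 and 74.7 in Nlrp5 +/-, and 28.9 and 110.5 in Nlrp5 -/-. Its NSN and SN values did not overlap in Nlrp5 +/+ and Nlrp5 -/-, and in Nlrp5 +/- they overlapped. Values of single genes did not overlap in either direction for 9.8% of all genes in Nlrp5 +/+ and 20.2% in Nlrp5 -/-. The ratio carries the difference of Wee1, which was named for its size.

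**Figure D4:**
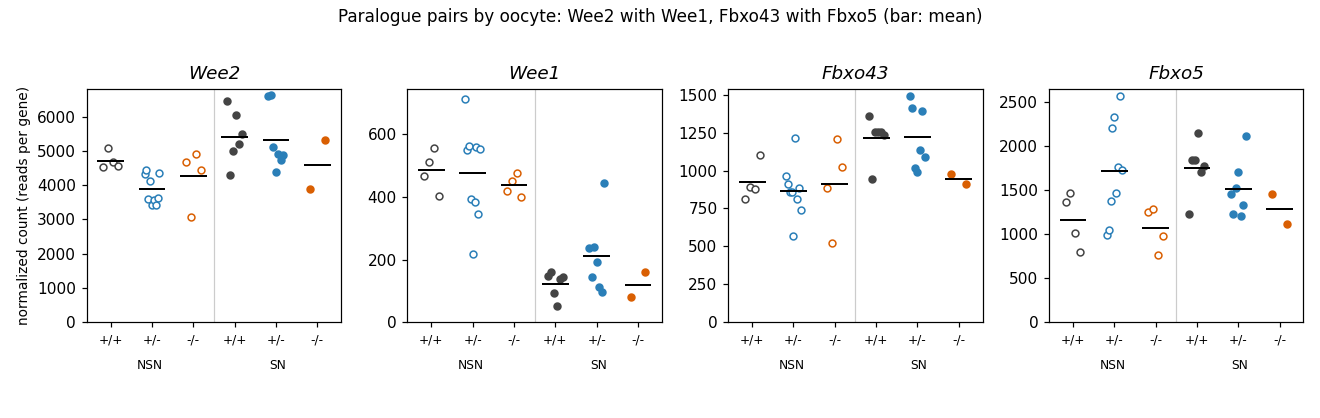
Normalized read counts (linear axes from 0) of Wee2, Wee1, Fbxo43 and Fbxo5 in each staged oocyte, by stage and genotype, with open points for NSN, filled points for SN and a bar at each group mean. SN points of Wee1 lie below the NSN points in Nlrp5 +/+, where they range from 50.6 to 161, and in Nlrp5 -/-, while those of Wee2 do not lie below. Of all genes, 6.07% were lower without overlap in Nlrp5 +/+ and 10.8% in Nlrp5 -/-.

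Fbxo5 (EMI1), the relative of Fbxo43 that acts in prophase, had 796, 1011, 1364 and 1465 normalized counts in NSN and ranged from 1235 to 2145 (median 1806) in SN Nlrp5 +/+ oocytes. Its log2 stage differences were 0.60, −0.19 and 0.26 in Nlrp5 +/+, Nlrp5 +/- and Nlrp5 -/-, with overlap in each, and the first was 0.46 without oocyte 87. The second turned sign within the 2 Nlrp5 +/- sets of libraries sharing a first index, at 0.32 and 0.10. Cdc20, an activator of the anaphase-promoting complex, differed by 1.05, 0.22 and 0.43, and Aurka, a kinase upstream of CDK1 activation, by 0.92, 0.40 and 0.54. Within the same 2 Nlrp5 +/- sets, Aurka was at 0.37 and −0.45 and Cdc20 at −0.18 and −1.68. Ccnb3, which encodes cyclin B3, differed by 0.73, 0.96 and 0.36, and the last was −0.28 without oocyte 31 and 0.81 without oocyte 7. Without oocyte 7 the Nlrp5 -/- differences of Fbxo5, Cdc20 and Aurka were 0.060, 0.18 and 0.36.

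Prkacb, a catalytic subunit of protein kinase A, was lower at SN, with log2 differences of −0.97, −0.90 and −1.18. Cdc14b, a phosphatase, differed by −1.10, −0.18 and −1.22, and Cdk2, a kinase related to CDK1, by −0.81, −0.39 and −0.75. In Nlrp5 +/- both turned sign in another setting, reaching 0.061 for Cdc14b and 0.011 for Cdk2. Within the 2 Nlrp5 +/- index sets, Cdc14b was at −0.45 and 0.57 and Cdk2 at −0.61 and −0.56. In Nlrp5 -/- Prkacb was at −2.11 without oocyte 31 and −0.62 without oocyte 7, and Cdc14b at −2.17 and −0.66. These 6 genes, Wee1 and Fbxo5 were named because they had the 4 largest differences of the list in each direction in Nlrp5 +/+, so their size in that genotype follows from the choice.

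Of the same list, 11 of 36 were past 0.5 and higher and 0 lower in Nlrp5 -/- over Nlrp5 +/+ at NSN, where 15.6% and 13.3% of all genes were. At SN it was 7 higher and 3 lower, against 15.9% and 18.7%. In Nlrp5 +/- over Nlrp5 +/+ it was 3 higher and 1 lower of 35 at NSN (10.8% and 8.61%) and 1 higher and 0 lower of 36 at SN (5.33% and 5.29%). In Nlrp5 -/- over Nlrp5 +/- it was 3 higher and 2 lower of 36 at NSN (12.2% and 14.9%), and 2 higher and 6 lower at SN (14.6% and 17.6%). Values did not overlap at NSN for 9 of 36 higher (3.96% of all genes) and 0 lower (3.14%) in Nlrp5 -/- over Nlrp5 +/+. Over Nlrp5 +/- it was 2 higher (0.476%) and 0 lower (0.686%). The 11 include Rps6ka2, which had 118 normalized counts in oocyte 14, with the high granulosa sum, and 7.26 to 9.23 in the other 3 NSN Nlrp5 -/- oocytes. At NSN the theca, stroma and blood marker sum was higher in Nlrp5 -/- than in Nlrp5 +/+ oocytes as well, and its part in these counts was not tested.

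Among the named genes, Cdc20 was past 0.5 and higher in Nlrp5 -/- over Nlrp5 +/+ at both stages, by 1.14 at NSN and 0.52 at SN, and Cdc14b was lower at SN (−0.53, and 0.036 without oocyte 7). In Nlrp5 +/- over Nlrp5 +/+ at NSN, Cdc20 (0.69, but 1.16 without oocyte 87 and 0.074 with no regard to stage) and Fbxo5 (0.57, and 0.43 without oocyte 87) were past 0.5 and higher and Cdc14b (−0.78) lower, and at SN Wee1 was higher (0.77). In Nlrp5 -/- over Nlrp5 +/-, Fbxo5 was lower at NSN (−0.68), and at SN Cdc20 was higher (0.66) and Wee1 (−0.81), Cdc14b (−0.67) and Ccnb3 (−0.52) were lower. Without oocyte 7 these 4 SN differences were 0.41, −0.39, −0.10 and −0.07. The SN difference of Cdc20 in Nlrp5 -/- over Nlrp5 +/+ was 0.27 without oocyte 7, and that of Wee1 in Nlrp5 +/- over Nlrp5 +/+ was 0.48 without oocyte 55.

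The libraries fell into 10 sets by the first of their index sequences, each set within 1 genotype, and 6 sets held oocytes of both stages. Within these, Wee2 was higher at SN in 6 of 6 sets, by log2 differences of 0.14 to 0.39. This was the case for 7.15% of 13687 genes, and 9.58% were lower in all 6. The sets were small, with 1 or 2 SN and 1 to 3 NSN oocytes each. The Nlrp5 -/- set held SN oocyte 31 and not SN oocyte 7. Without oocyte 31, the Wee2 difference over the staged Nlrp5 -/- oocytes was −0.13. Fbxo43 was higher in 5 of 6, and the exception was the Nlrp5 -/- set (−0.29). Gpr3 and Adcy3 were also higher in 5 of 6 sets, Pde3a, Cdc25b, Cdk1 and Ccnb1 in 4, Mos in 3 and Ccnb2 in 2. Ccnb2 was lower in both Nlrp5 +/- sets, with log2 differences of −0.49 and −0.65.

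**Figure D5:**
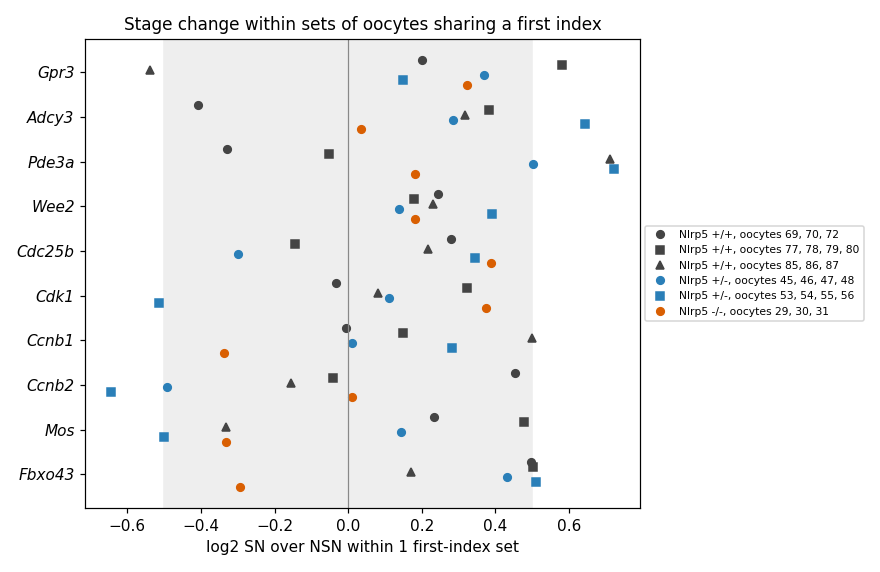
Log2 difference of SN over NSN for each of the 10 genes within each of the 6 index sets that held both stages, with colour for genotype, symbol for set and grey over differences within 0.5. All 6 points of Wee2 lie above 0, between 0.14 and 0.39, while those of Ccnb2 lie on both sides of 0. Each set held 1 or 2 SN and 1 to 3 NSN oocytes.

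Across the 32 staged oocytes the 45 pairs among the 10 genes had Pearson r between −0.57 (Pde3a and Ccnb2) and 0.75 (Wee2 and Fbxo43), with a median of 0.03, on log2 normalized counts. The 10 did not move as one block across oocytes. For the 3 genes with the largest stage difference in Nlrp5 +/+, the most alike of 10088 genes were sought. For Fbxo43 these were Zcchc8 (0.84), Cers6 (0.84) and Fut8 (0.83), for Wee2 Nfxl1 (0.84), Gpm6a (0.83) and Cers6 (0.83), and for Ccnb1 Kbtbd7 (0.79), Wdr20 (0.79) and Zfp68 (0.79). After subtraction of the stage means the values were 0.74, 0.75 and 0.77 for Fbxo43, 0.79, 0.72 and 0.74 for Wee2, and 0.80, 0.84 and 0.79 for Ccnb1. The order changed with it, since the genes then most like were Fut8 (0.77) for Fbxo43, Anapc4 (0.80) for Wee2 and Wdr20 (0.84) for Ccnb1, and Gpm6a came 14th for Wee2. The points share stage, genotype, index set and scaling, and these values are descriptions.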

How the data were processed

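Polyadenylated RNA of 33 single oocytes was sequenced. Reads were trimmed (Trim Galore) and aligned (HISAT2) by the authors, who deposited raw counts per gene, not normalized. The table and the labels name GRCm38, whose coordinates are printed as they stand, while the methods name GRCm39. The strand setting of the counting is not given in the sources used here. The deposited tables of genes called by the authors with DESeq2 hold their own comparisons and were not used.

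Genotype came from the labels. Stage came from the study's staging bar, which the authors drew from marker genes in these libraries, so a stage difference is between oocytes sorted by their own transcripts. The study's text and a caption give fewer staged Nlrp5 +/- oocytes than that bar, which was followed. Of 35373 entries, 52 repeats were left out. Counts were divided by median-of-ratios size factors (0.542 to 1.97, from 11845 genes), averaged over oocytes with equal weight and compared as log2 of the mean plus 1. Genes with a mean under 10 normalized counts over the oocytes compared were left out. Oocytes of a genotype and stage counted as 1 sample, so no p-value was computed. The study's own tests took oocytes as replicates. The design fixed a size of 0.5 as threshold after the study's methods. Exact Poisson intervals are at 95% and cover counting error only.

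The 10 genes, the lists and the settings were chosen with earlier results of these data known. All 10 are named, along with the 4 pathway genes with the largest difference in each direction from NSN to SN in Nlrp5 +/+, and, for the 3 of the 10 with the largest such difference, the 3 genes of at least 50 mean normalized counts with the highest Pearson r. Rps6ka2 was named after its values were seen. Alternatives were scaling by total count or by TMM factors, a pseudocount of 5, pooled sums, medians over oocytes, no filter or one of 100, another threshold of 1, oocyte 61 counted as SN with oocyte 55 as NSN, no regard to stage with oocyte 15, means of index sets, and each oocyte left out in turn. Added after seeing the data were leaving out oocytes with high granulosa sums, leaving out oocytes 55 and 56, and canonical transcript lengths. The scripts were tested on simulated data. R 4.3.3 with edgeR 4.0.16 gave the TMM factors, and the rest used Python 3.11.15 with scipy 1.17.1, pandas 2.3.3, numpy 2.4.6 and matplotlib 3.10.9.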

Additional observations from a re-analysis of the deposited data

Results flagged for a closer look

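Of 90 groups of 4 to 9 oocytes examined, 7 held an oocyte farther from the others than Dixon's limit allows, where chance gives about 1 in 20 groups, or 4.5. Pde3a was highest in Nlrp5 +/- SN oocyte 55, at 3514 normalized counts against 1936 to 2355 in the other 6. In the same oocyte Cdc20 was lowest, at 266 against 1094 to 1446, and Aurka was lowest, at 1220.3 against 2066 to 2462. Ccnb1 was lowest in Nlrp5 +/- NSN oocyte 56, at 5541 against 9202 to 15202. Wee1 in oocyte 55, at 443, and in oocyte 56, at 218, lay among the levels of the other stage, and Cdc20 in oocyte 56, at 1523, lay above all oocytes of both stages in this genotype.

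Ccnb2 was lowest in Nlrp5 -/- NSN oocyte 14, at 1318 against 1758 to 1815, and this oocyte also had the high granulosa marker sum of 659 CPM. Fbxo43 was lowest in Nlrp5 +/+ SN oocyte 72, at 943 against 1232 to 1356. Cdc20 was highest in Nlrp5 +/+ NSN oocyte 87, at 1075 against 401 to 451.

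Within index sets, Cdc20 was higher at SN in all 3 Nlrp5 +/+ sets, with log2 differences of 0.17 to 1.70, and lower at SN in both Nlrp5 +/- sets, with a mean of −0.93. One of these Nlrp5 +/- sets holds oocytes 55 and 56. The difference between the genotypes was not tested.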

How the results depend on the processing

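In NSN against SN, the median log2 difference of the 10 genes in Nlrp5 +/+ oocytes was 0.14, 0.025 after scaling by total count and 0.015 with pooled sums. The number of the 10 past 0.5 between stages was 0 in each genotype, and it was 1 in Nlrp5 +/+ with medians over oocytes (Fbxo43), 1 in Nlrp5 +/- with oocyte 61 as SN and oocyte 55 as NSN (Fbxo43), 2 in Nlrp5 +/- with the mean of index sets (Pde3a 0.61 and Ccnb2 −0.57), and 1 in Nlrp5 -/- with TMM factors or without the oocyte of high granulosa sum (Gpr3). Leaving out each oocyte in turn gave counts of 0 to 1 in Nlrp5 +/- and 0 to 3 in Nlrp5 -/-, with medians of 0.043 (without oocyte 56) to 0.20 (without oocyte 61) in the former and 0.083 to 0.16 in the latter. Other settings gave medians of 0.015 to 0.20 in Nlrp5 +/-. The 3 were Gpr3 (0.63), Ccnb2 (−0.87) and Mos (0.58) without oocyte 31, which leaves 1 SN oocyte, number 7.

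For Nlrp5 -/- over Nlrp5 +/+ at NSN, the count of 2 became 3 with medians over oocytes (Ccnb2, 0.51, beside Ccnb1 and Adcy3), 1 with pooled sums or a pseudocount of 5 and 0 with no regard to stage, and the median of −0.06 became 0.046 with medians over oocytes. At SN the count of 1 became 0 with no regard to stage. For Nlrp5 +/- over Nlrp5 +/+ at NSN, the count of 1 became 0 with scaling by total count, with oocyte 61 as SN and 55 as NSN, or with no regard to stage, and at SN the median of −0.02 became −0.12 with medians over oocytes. For Nlrp5 -/- over Nlrp5 +/- at NSN, the count of 2 became 1 with medians over oocytes, with pooled sums, with no regard to stage or without oocytes 55 and 56. The median without regard to stage, which includes oocyte 15, was −0.16, against 0.10 at NSN and 0.00 at SN. Counts with 1 oocyte left out were 1 to 2 for Nlrp5 -/- over Nlrp5 +/+ at NSN and at SN, 0 to 1 for Nlrp5 +/- over Nlrp5 +/+ at NSN, and 1 to 3 for Nlrp5 -/- over Nlrp5 +/- at NSN and at SN, with medians of −0.054 to 0.093 at SN.

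Cdc14b changed sign in Nlrp5 -/- over Nlrp5 +/+ at SN, from −0.53 to 0.036 without oocyte 7 (−1.48 without oocyte 31), and in Nlrp5 -/- over Nlrp5 +/- at SN, from −0.67 to 0.033 with no regard to stage. The cause of these changes was not tested. Other single genes changed sign too, for example in Nlrp5 -/- over Nlrp5 +/+ at SN. There Prkacb went from −0.26 to 0.30 without oocyte 7, and Mos from −0.11 to 0.33 without oocyte 31. Sorted by size of move alone, 3045 of the other values of single genes moved by less than the spread between oocytes and 49 by more. No paired analysis was possible because the replicate numbers only name oocytes and pair none across groups. Stages were compared within index sets instead. The limits are the number of oocytes, with 2 SN Nlrp5 -/- oocytes, the unknown number of mice, and, for Adcy3, counts of 10 to 89.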

Other observations

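Rps6ka2, which encodes a ribosomal S6 kinase downstream of the MAPK cascade and was singled out after its values were seen, had 118 normalized counts in Nlrp5 -/- NSN oocyte 14 and 374 in unstaged Nlrp5 -/- oocyte 15, and at most 28.9 in any other oocyte. These are the oocytes whose granulosa marker sums were above those of every Nlrp5 +/+ oocyte. The part of RNA from other cells was not tested. Oocyte 15 also lay outside the range of the 6 staged Nlrp5 -/- oocytes for Pde3a (2740.1 normalized counts, above), Cdk1 (2000.4, above) and Wee2 (2985, below), beside Adcy3 and Ccnb1. Together the 10 genes took 0.369% to 0.494% of the counts of a staged oocyte.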
